A study of Mus musculus with 34 samples.

Results

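Tcstv-related genes are a small family of mouse genes whose transcripts are abundant in the 2-cell embryo. The 5 genes described here, Tcstv1, Tcstv3, Gm20767, Gm21761 and AF067061, were taken by symbol, with earlier results of these data known, from 49686 symbols listed for zygotes and late 2-cell embryos and 51734 listed for blastocysts. All 5 symbols were listed in every table. Each library was 1 mouse embryo, sequenced after early zygotes had been injected with mRNA for CHK1, the checkpoint kinase that delays mitosis when DNA is damaged or incompletely replicated. The groups labelled WT received wild-type CHK1 mRNA and the groups labelled R442Q received the mutant CHK1 mRNA, so every embryo carried injected CHK1 and there was no uninjected group. Zygotes (5 WT, 6 R442Q) and late 2-cell embryos (4 WT, 5 R442Q) were untreated, and blastocysts (7 WT, 7 R442Q) had been grown in CHK1 inhibitor at 30 nM, so a difference between blastocysts and earlier stages cannot be told apart from the inhibitor. The labels also list WT or CHK1 R442Q mutant as each embryo's genotype, while their protocol describes mRNA injection, and the protocol is followed here. The labels name neither strain nor parental animals, so p-values measure the spread between the sampled embryos.

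In the mouse, the embryo's own genome is switched on in earnest at the 2-cell stage, and a transient set of transcripts appears there and is lost soon after. That set includes Zscan4 and Tcstv genes, and the transcription factor Dux is known for activating much of it. In embryonic stem cells the same transcripts mark a rare 2-cell-like state, and Tcstv1 and Tcstv3 are known there for promoting telomere lengthening. Little is settled about what each of the other members does.

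The members lie together on chromosome 13 of GRCm38, within 424.8 kb from position 119893388 to 120318178 (positions and identifiers from GENCODE M21). Tcstv1 (ENSMUSG00000096284.2, 119893388 to 119894785) and Gm21761 (ENSMUSG00000096175.3, 119912095 to 119929272) are on the minus strand. Gm20767 (ENSMUSG00000096323.2, 120140246 to 120155335), AF067061 (ENSMUSG00000095071.2, 120263114 to 120264517) and Tcstv3 (ENSMUSG00000095821.2, 120316878 to 120318178) are on the plus strand. Each has a coding sequence of 510 or 516 bases with the stop codon, in a single exon. The coding sequences of the 10 pairs of members are 92.64% to 97.48% identical. AF067063, a further gene of the same kind just outside the interval, is 77.07% to 79.73% identical to the members. No 50-base stretch of it occurs in a member, with 0 found, but 70.69% of them (591) occur in Gm21731, so its own values are uncertain too. The first 90 coding bases are shown because they make plain how few letters separate the members when reads are assigned, with capitals marking a base unlike that of most members.
Tcstv1 (GRCm38, chr13:119894005-119894094, minus strand): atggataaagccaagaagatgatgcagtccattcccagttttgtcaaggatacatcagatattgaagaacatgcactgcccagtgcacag
Tcstv3 (GRCm38, chr13:120317567-120317656, plus strand): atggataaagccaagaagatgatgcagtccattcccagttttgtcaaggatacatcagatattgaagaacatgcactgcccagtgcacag
Gm20767 (GRCm38, chr13:120154627-120154716, plus strand): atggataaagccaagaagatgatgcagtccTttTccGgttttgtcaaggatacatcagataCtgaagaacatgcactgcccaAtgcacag
Gm21761 (GRCm38, chr13:119912663-119912752, minus strand): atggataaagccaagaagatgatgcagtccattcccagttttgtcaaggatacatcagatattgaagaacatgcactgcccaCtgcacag
AF067061 (GRCm38, chr13:120263802-120263891, plus strand): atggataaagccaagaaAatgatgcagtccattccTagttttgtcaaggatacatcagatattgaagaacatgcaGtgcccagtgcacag

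Tcstv1 and Tcstv3 have the same letters over this stretch, while Gm20767 has 5 letters unlike most members, AF067061 has 3 and Gm21761 has 1. Over whole transcripts the overlap with other genes was uneven. Of the 50-base stretches of Tcstv1, 14.96% occurred in another annotated gene, against 31.37% for Tcstv3 and 23.43% for AF067061. For Gm20767 the share was 70.17% and for Gm21761 76.23%, with 838 stretches common to this pair. A read from such a stretch has no unique origin, so the estimated counts of Gm20767 and Gm21761 are uncertain as a split between this pair, and the sum of the 5 members is given beside the single values. Reads shared with relatives outside the set, mainly Gm21818 for Tcstv1 and Tcstv3, are not mended by the sum.

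Promoter windows were found in the RefSeq table (GRCm38.p6) for 2 of the 5 members, Gm21761 and AF067061. Both are shown because both genes moved from near 0 to high levels between the stages. The windows, from 250 bases before to 50 after the RefSeq start, are 89.74% identical (271 of 302 aligned columns). Printed are the 250 bases before the start of AF067061, and for Gm21761 the first 170 of these, up to where GENCODE places an untranslated exon. RefSeq and GENCODE place the start of Gm21761 in different positions. Capitals mark TATAA, known as the core of the TATA box, and GGATTA, a motif that homeobox proteins of the Obox kind are known to bind. Its reverse complement, TAATCC, is also in capitals. In AF067061 the first TATAA and TAATCC overlap, which gives TATAATCC.
Gm21761 (GRCm38.p6, chr13:119913549-119913718, minus strand): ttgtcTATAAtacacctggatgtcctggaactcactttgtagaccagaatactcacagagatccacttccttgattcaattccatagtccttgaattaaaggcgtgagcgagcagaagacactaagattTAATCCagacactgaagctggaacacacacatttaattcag
AF067061 (GRCm38.p6, chr13:120262845-120263094, plus strand): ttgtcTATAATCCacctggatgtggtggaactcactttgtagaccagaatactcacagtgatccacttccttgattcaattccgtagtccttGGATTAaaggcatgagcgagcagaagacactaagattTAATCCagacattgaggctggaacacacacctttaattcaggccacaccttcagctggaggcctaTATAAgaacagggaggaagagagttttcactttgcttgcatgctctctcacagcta

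Both strands were searched, the reverse complement of TATAA being TTATA. The first motif lay at -245 and -56 from the RefSeq start in both windows, the second of them outside the printed stretch of Gm21761. TAATCC lay at -121 in both, and AF067061 also had GGATTA at -158 and TAATCC at -243. Of 32851 windows of the same length, 24.87% held TATAA or its complement and 7.062% held GGATTA or its complement. These matches are descriptions of the letters only.

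The libraries held 7183632 to 11296522 estimated counts in zygotes and 5727956 to 8916343 in late 2-cell embryos, and blastocyst depth is unknown because only FPKM (fragments per kilobase of transcript, scaled to library size) was used for them. A floor of 3 counts corresponds to 0.266 to 0.418 CPM (counts scaled to the same library size) in zygotes and 0.337 to 0.524 CPM in late 2-cell embryos, and covers counting error only. The 7 blastocyst markers, Cdx2 and Krt8 among them, summed to an FPKM of 1461 or more in every blastocyst. They summed to 71.34 to 204.2 FPKM in zygotes and 24.89 to 77.4 FPKM in late 2-cell embryos. Cdx2 alone was at 0 in every late 2-cell embryo, while 5 of the 7 averaged an FPKM of at least 1 in WT and 4 in R442Q. The 7 zygote markers did not separate all embryos by stage, since R442Q late 2-cell embryos summed to 2552 to 7536 FPKM (median 5208) and R442Q zygotes to 4722 to 6234 FPKM (median 5649). Of 10 cumulus cell markers, a sign of cells clinging to an embryo, 1 averaged an FPKM of at least 1 in zygotes and 2 in late 2-cell embryos. The 10 summed to 12.65 to 21.08 FPKM in zygotes and 17.97 to 74.08 FPKM in late 2-cell embryos. Their signal was thus not absent, although Fshr, Inhba and Hsd3b1 were at 0 in every late 2-cell embryo.

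In WT zygotes the family was carried by Tcstv1 and Tcstv3. Mean FPKM was 128.0 ± 25.2 for Tcstv1 (SD, n = 5) and 39.1 ± 16.3 for Tcstv3, against 1.65 ± 1.17 for Gm20767, 0.766 ± 0.708 for AF067061 and 0.672 ± 0.762 for Gm21761. The first of these ranked at number 841 among all symbols by mean FPKM. Its range lay above that of Tcstv3, and the Tcstv3 range lay above those of the other members, whose ranges overlapped one another. Together Tcstv1 and Tcstv3 made up 97.27% to 99.60% of the summed FPKM of the 5 members in WT zygotes. Zygotes still hold most of the RNA stored in the egg, and these libraries do not separate stored from newly made transcripts.

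**Figure D1:**
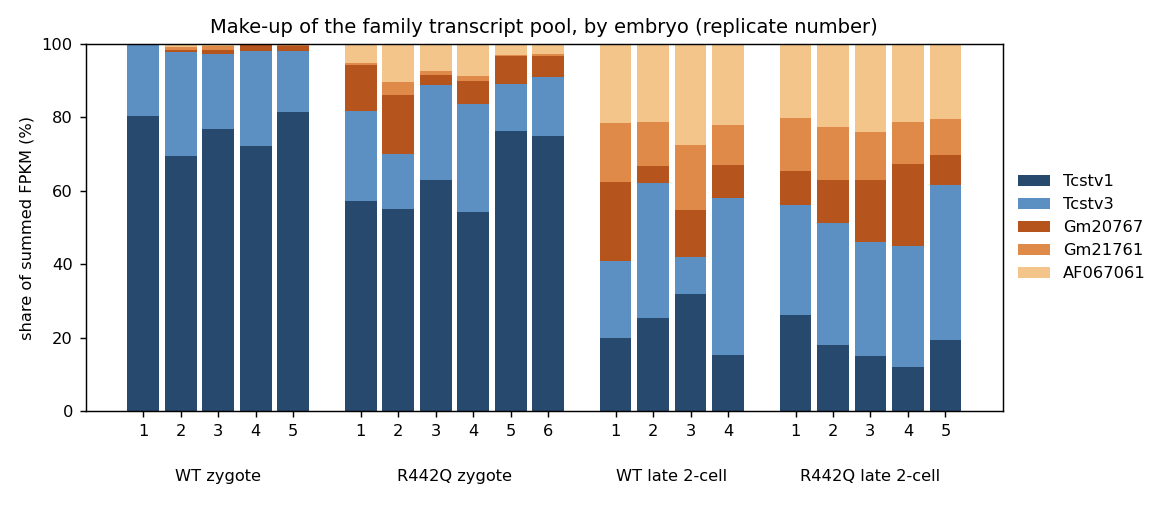
Each bar is 1 embryo (replicate number on the x axis) and shows the share of the summed FPKM of the 5 members held by each member, in percent. Tcstv1 and Tcstv3 together fill 97.27% to 99.60% of the bar in WT zygotes, 69.97% to 90.96% in R442Q zygotes and 41.03% to 62.09% in late 2-cell embryos of either group.

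The comparison of R442Q with WT zygotes asks what the mutant CHK1 does to transcripts within the first cell cycle. Gm20767 and AF067061 were higher in R442Q zygotes, by a log2 fold change of 3.09 ± 0.55 and 3.49 ± 0.58 (SE), whereas Tcstv1 and Tcstv3, the abundant pair, did not pass the test. Gm20767 stood at 0.247, 1.05, 1.58, 2.30 and 1.02 CPM in WT replicates 1 to 5, or 2 to 17 estimated counts. In R442Q replicates 1 to 6 it stood at 10.1, 24.9, 4.22, 4.22, 7.62 and 7.62 CPM, or 36.3 to 183.1 estimated counts. Every R442Q zygote was above every WT zygote, and R442Q replicate 2 was the highest. The edgeR quasi-likelihood test gave Gm20767 an adjusted p of 0.00177.

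AF067061 stood at 0.247, 1.41, 0.731, 0.272 and 0.113 CPM in WT zygotes, or 1 to 12.25 estimated counts. In R442Q zygotes the values were 3.59, 10.99, 9.06, 4.94, 3.27 and 3.06 CPM, or 25.82 to 85.81 estimated counts. Here too the groups did not overlap, with R442Q replicate 2 highest, and the edgeR adjusted p was 0.00111. The WT mean was 0.554 ± 0.531 CPM (SD, n = 5), and the R442Q mean was 5.82 ± 3.38 CPM (SD, n = 6). Without R442Q replicate 2 the log2 fold changes were 2.56 for Gm20767 (edgeR adjusted p 0.0033) and 3.21 for AF067061 (0.00289), both still past the threshold, and without WT replicate 2 that of AF067061 was 4.13 (0.00105).

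Gm21761, the member closest in sequence to both of these, was too low to test. It was listed at 0.124, 1.22, 1.09, 0 and 0.225 CPM in WT zygotes and at 0.461, 5.85, 1.52, 1.25, 0.876 and 0.786 CPM in R442Q zygotes. The groups overlapped, and only R442Q replicate 2 was well above the rest. Fitted with no filter on low counts, Gm21761 differed by a log2 of 1.75 ± 0.80 (edgeR adjusted p 0.197). Its counts and those of Gm20767 share most of their sequence, so a difference between these members in these low values is not secure.

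Tcstv1 stood at 91.0, 96.0, 94.5, 103.7 and 58.6 CPM in WT zygotes and at 39.5, 57.0, 72.4, 30.6, 80.8 and 80.1 CPM in R442Q zygotes. WT replicate 5 lay apart from the other WT zygotes, 3 of the 6 R442Q zygotes were below it, and the groups overlapped. The log2 fold change was -0.45 ± 0.22 (edgeR adjusted p 0.196). Tcstv3 ranged from 10.3 to 32.6 CPM in WT (median 21.7) and from 11.5 to 25.4 CPM in R442Q (median 13.4). Its log2 fold change was -0.44 ± 0.28 (edgeR adjusted p 0.34), and its groups overlapped.

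Of the 5 members, then, 4 were tested and 2 were higher, and edgeR called 13.2% of all 12420 genes tested in zygotes (6.3% of all as higher and 6.92% as lower). Ranges that did not overlap, with R442Q higher, were found for 2.54% of all genes tested. Gm20767 and AF067061 passed the filter on low counts through the R442Q embryos, since only 2 and 1 of the 5 WT zygotes reached the 1.163 CPM that the filter asked of 5 embryos, so the count of members tested is no support for the direction. Both were also called with no filter. In the model of both stages together the log2 fold change of Gm20767 was 3.11 but its call was lost (edgeR adjusted p 0.0641), while AF067061 kept its call (3.49, adjusted p 0.0127).

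**Figure D2:**
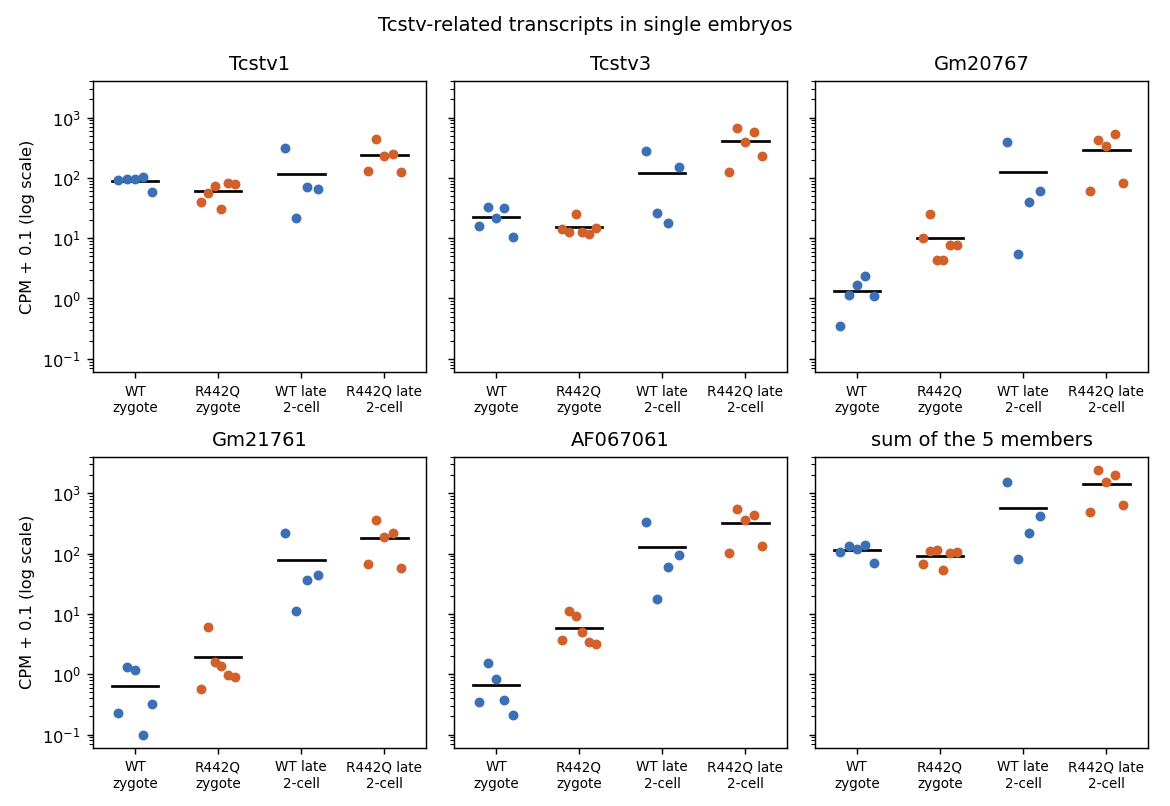
Each point is 1 embryo, plotted as CPM + 0.1 on a log axis for the 5 members and their sum, by stage and by injected CHK1 (blue WT, orange R442Q), with a black line at the mean. Gm20767 and AF067061 separate in zygotes, with means of 1.24 against 9.78 CPM and 0.554 against 5.82 CPM, while in late 2-cell embryos WT replicate 1 lies among the R442Q values for every member.

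Summed over the 5 members, the zygotes of the 2 groups overlapped. The sum was 107.2, 132.3, 119.6, 138.1 and 70.3 CPM in WT and 67.9, 111.4, 112.6, 53.7, 104.0 and 106.3 CPM in R442Q. The means were 113.5 ± 26.9 CPM (SD, n = 5) and 92.6 ± 25.3 CPM (SD, n = 6). The make-up of the pool differed, since Gm20767, Gm21761 and AF067061 together held 0.399% to 2.73% of the summed FPKM in WT zygotes and 9.04% to 30.0% in R442Q zygotes, with no overlap. No p is given for the sum or the shares.

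Other transcripts moved with the same contrast. The 5 late 2-cell markers summed to 5.58 to 11.49 FPKM in WT zygotes and 13.06 to 94.7 FPKM in R442Q zygotes, and the 7 zygote markers to 6300 to 7964 and 4722 to 6234 FPKM. The 10 cumulus markers summed to 18.44 to 21.08 FPKM in WT zygotes and 12.65 to 17.45 FPKM in R442Q zygotes. None of these pairs of ranges overlapped, and the part of these differences in the results on the members was not tested. AF067063 averaged 1.98 CPM in WT and 3.63 CPM in R442Q zygotes, with overlapping values and a log2 fold change of 0.97 ± 0.48 (edgeR adjusted p 0.203).

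Between the zygote and the late 2-cell stage the WT levels of Tcstv3, Gm20767, Gm21761 and AF067061 rose, and Tcstv1 did not pass the test. The log2 fold change in WT embryos was 2.29 ± 0.57 for Tcstv3 (SE, edgeR adjusted p 0.00151) and 6.49 ± 0.96 for Gm20767 (3.96e-06). It was 6.94 ± 0.93 for Gm21761 (9.89e-07) and 7.65 ± 0.81 for AF067061 (3.02e-08). Without late 2-cell replicate 1 these rises were smaller, at 1.39 for Tcstv3 (edgeR adjusted p 0.0339), 4.62 for Gm20767, 5.54 for Gm21761 and 6.44 for AF067061, all still past the threshold. In WT zygotes Gm20767, Gm21761 and AF067061 had only 2 to 17, 0 to 10.59 and 1 to 12.25 estimated counts. The size of their rise is therefore uncertain. In the same model 61.2% of all 16199 genes tested changed between the stages in WT, 36.2% of all being higher and 25% lower, so a rise alone does not set the 4 members apart from other genes. The summed level was higher in late 2-cell embryos by 1.57 in mean log2 CPM, with overlapping ranges (70.3 to 138.1 CPM in WT zygotes and 81.3 to 1546.6 CPM in WT late 2-cell embryos). The difference was 0.83 without late 2-cell replicate 1 and 2.24 without replicate 2. Because the authors deposited each stage separately, differences in collection or sequencing between stages cannot be told apart from development.

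Tcstv1 in WT late 2-cell embryos stood at 310.4, 21.3, 70.2 and 66.1 CPM, around the WT zygote values of 58.6 to 103.7 CPM. The log2 change was 0.26 ± 0.48 (edgeR adjusted p 0.653). Replicate 1 alone was above all WT zygotes, and replicate 2 was below all of them. Without late 2-cell replicate 1 the direction turned, to -0.96 on the log2 scale (edgeR adjusted p 0.0489). The direction of the Tcstv1 change in WT embryos therefore depended on a single embryo.

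In R442Q embryos all 5 members rose, against 65.1% of all genes called in either direction 35.3% being higher and 29.8% lower. The log2 changes were 1.78 ± 0.44 for Tcstv1 (SE, edgeR adjusted p 0.00111), 4.53 ± 0.57 for Tcstv3 (2.71e-07) and 4.68 ± 0.77 for Gm20767 (1.34e-05). They were 6.47 ± 0.79 for Gm21761 (1.89e-07) and 5.56 ± 0.63 for AF067061 (6.33e-08). Without R442Q zygote replicate 2 the change of Gm21761 was 7.23. For each member the lowest R442Q late 2-cell embryo was above the highest R442Q zygote. The summed level was higher by 3.72 in mean log2 CPM, without overlap (highest zygote 112.6 CPM, lowest late 2-cell embryo 487.9 CPM). A separation of this kind, with late 2-cell embryos higher, was found for 23.4% of all genes tested.

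The difference of the stage change between R442Q and WT embryos was tested directly. edgeR called 0 of the 5 members, against 10.1% of all genes tested, and 3 of the 5 had an unadjusted p under 0.05, against 24.7% of all genes. The summed level changed by 2.15 more in R442Q in mean log2 CPM, for which no p is given (2.90 without WT late 2-cell replicate 1, 1.48 without replicate 2). For Tcstv1 the R442Q change exceeded the WT change by a log2 of 1.52 ± 0.65 (adjusted p 0.144 in edgeR). For Tcstv3 the excess was 2.24 ± 0.77 (edgeR adjusted p 0.0676), which passed in DESeq2 (adjusted p 0.0172) and with no filter on low counts (edgeR adjusted p 0.0195). Gm20767, Gm21761 and AF067061 had a smaller change in R442Q than in WT, by -1.81 ± 1.11, -0.47 ± 1.08 and -2.09 ± 0.94, with edgeR adjusted p of 0.328, 0.836 and 0.169. Their WT zygotes held at most 17, 10.59 and 12.25 estimated counts, so the sizes of these differences are uncertain. Without WT late 2-cell replicate 1, Tcstv1 (2.69, edgeR adjusted p 0.0032) and Tcstv3 (3.10, 0.0134) both passed, Gm20767 (0.02) and Gm21761 (0.89) turned direction, and AF067061 stood at -0.92. Tcstv3 also passed in edgeR without R442Q zygote replicate 3 (adjusted p 0.0436) or without R442Q late 2-cell replicate 1 (0.0335), 3 (0.0444) or 5 (0.0405). Without R442Q zygote replicate 2 Gm21761 also turned, to 0.47, and Gm20767 stood at -1.16.

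**Figure D3:**
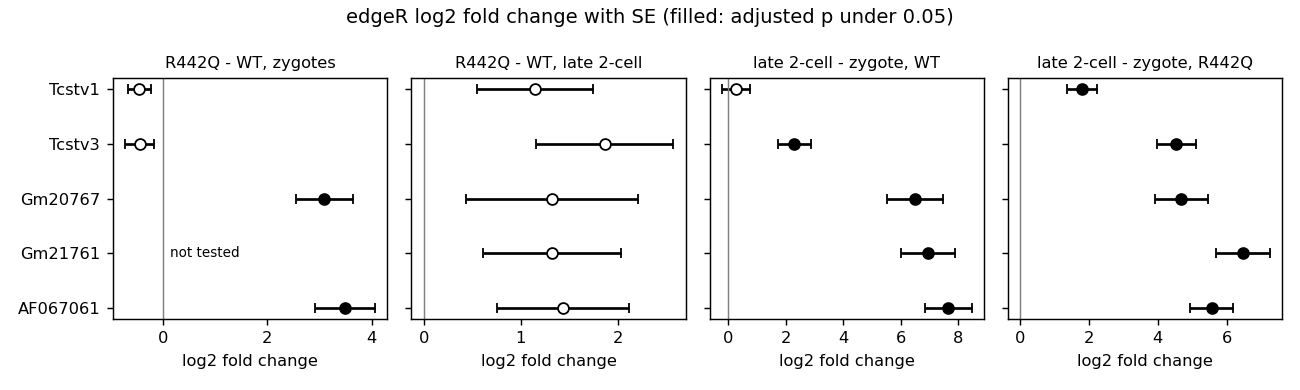
Points are edgeR log2 fold changes with their SE for the 5 members in 4 comparisons, each panel with its own x axis, filled where the adjusted p was under 0.05. Gm20767 (3.09) and AF067061 (3.49) are filled in zygotes, none is filled in the comparison of R442Q with WT late 2-cell embryos, and every member except Tcstv1 in WT is filled in the stage comparisons.

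At the late 2-cell stage the members no longer split into an abundant pair and a trace group. Mean FPKM in WT embryos was 194.6 ± 201.2 for Tcstv3, 174.7 ± 197.7 for AF067061, 160.1 ± 179.7 for Tcstv1, 139.5 ± 215.0 for Gm20767 and 117.5 ± 149.9 for Gm21761 (SD, n = 4). In R442Q embryos the order was Tcstv3 at 684.9 ± 388.4, AF067061 at 454.3 ± 276.9, Tcstv1 at 337.1 ± 179.0, Gm20767 at 316.8 ± 250.9 and Gm21761 at 265.9 ± 172.2 FPKM (SD, n = 5). The order of the 5 means was the same in both groups, but each neighbouring pair differed by less than its SDs. AF067061 held the steadiest share of the pool, 20.1% to 27.4% of the summed FPKM over all 9 embryos. Gm20767 varied from 4.70% to 22.2%. By mean FPKM the members ranked between numbers 556 and 1006 among all symbols in WT and between 188 and 588 in R442Q.

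The embryos differed far more in how much of the family they held. The summed level was 1546.6, 81.3, 221.7 and 417.9 CPM in WT replicates 1 to 4 and 487.9, 2433.9, 1514.7, 2017.0 and 629.5 CPM in R442Q replicates 1 to 5. WT replicate 1 lay among the high R442Q embryos, the other WT embryos were below every R442Q embryo, and the groups overlapped through that embryo alone. The means were 566.9 ± 667.6 CPM (SD, n = 4) and 1416.6 ± 849.5 CPM (SD, n = 5), a ratio of 2.50. The ratio of the medians was 4.74, and without WT replicate 1 the WT mean was 240.3 ± 169.1 CPM (SD, n = 3) and the ratio of means 5.90. Within WT the highest embryo held 19.0 times the lowest, and within R442Q 4.99 times, whereas in zygotes these ratios were 1.96 and 2.10. AF067063 spanned 2.27 times in WT and 1.499 times in R442Q late 2-cell embryos. Cell counts, RNA content and transcript level per cell cannot be told apart in a whole embryo.

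Comparing R442Q with WT late 2-cell embryos, all 5 members had a positive log2 fold change but edgeR called 0 of 5, against 4.18% of all 13883 genes tested (1.22% of all as higher and 2.95% as lower). DESeq2 and limma on FPKM also called 0, and 1 member, Tcstv3, had an unadjusted p under 0.05 in edgeR, a share near the 21% found for all genes. The median of the members was 1.32 and that of all genes tested 0.07. Among the tested genes, 3.67% had ranges that did not overlap with R442Q higher, and no member was among them.

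Tcstv3 had the lowest p of the members with all embryos in the fit. It stood at 279.3, 25.8, 17.6 and 153.4 CPM in WT and at 127.0, 673.8, 391.8, 580.3 and 232.2 CPM in R442Q. R442Q replicates 2, 3 and 4 were above every WT embryo, and R442Q replicate 1 lay below WT replicates 1 and 4. The log2 fold change was 1.86 ± 0.71 (edgeR adjusted p 0.145). It passed the threshold with no filter on low counts (1.80, edgeR adjusted p 0.0173) and with both stages in 1 model (1.83, 0.0368).

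AF067061 stood at 337.8, 17.6, 58.9 and 93.5 CPM in WT and at 100.8, 542.2, 361.7, 439.9 and 131.6 CPM in R442Q. WT replicate 1 again lay inside the R442Q range, and the other WT embryos were below it. Its log2 fold change was 1.43 ± 0.68 (edgeR adjusted p 0.246). Tcstv1 stood at 131.4, 435.8, 234.4, 249.99 and 124.4 CPM in R442Q, with a log2 fold change of 1.14 ± 0.60 (edgeR adjusted p 0.299).

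Gm20767 stood at 398.2, 5.34, 39.1 and 61.4 CPM in WT and at 61.5, 428.6, 337.1, 525.8 and 83.5 CPM in R442Q. Here R442Q replicate 1 was level with WT replicate 4, and R442Q replicate 4 was the highest embryo. Its log2 fold change was 1.32 ± 0.88 (edgeR adjusted p 0.426). Gm21761 stood at 220.9, 11.2, 36.0 and 43.5 CPM in WT and at 67.2, 353.5, 189.7, 221.0 and 57.8 CPM in R442Q, with a log2 fold change of 1.32 ± 0.71 (edgeR adjusted p 0.308).

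WT replicate 1 weighed on these values. Without it the log2 fold changes were 2.21 for Tcstv1, 2.62 for Tcstv3, 3.05 for Gm20767, 2.59 for Gm21761 and 2.50 for AF067061. The edgeR adjusted p-values were then 0.0462, 0.084, 0.0762, 0.0547 and 0.0632, so Tcstv1 alone passed. The 5 late 2-cell markers summed to 109.9 to 722.5 FPKM in WT and 390.8 to 912.5 FPKM in R442Q late 2-cell embryos, and the 7 zygote markers to 1892 to 3712 and 2552 to 7536 FPKM. The 10 cumulus markers summed to 44.63 to 71.68 and 17.97 to 74.08 FPKM. Each of these pairs of ranges overlapped, and their part in the spread of the members was not tested.

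**Figure D4:**
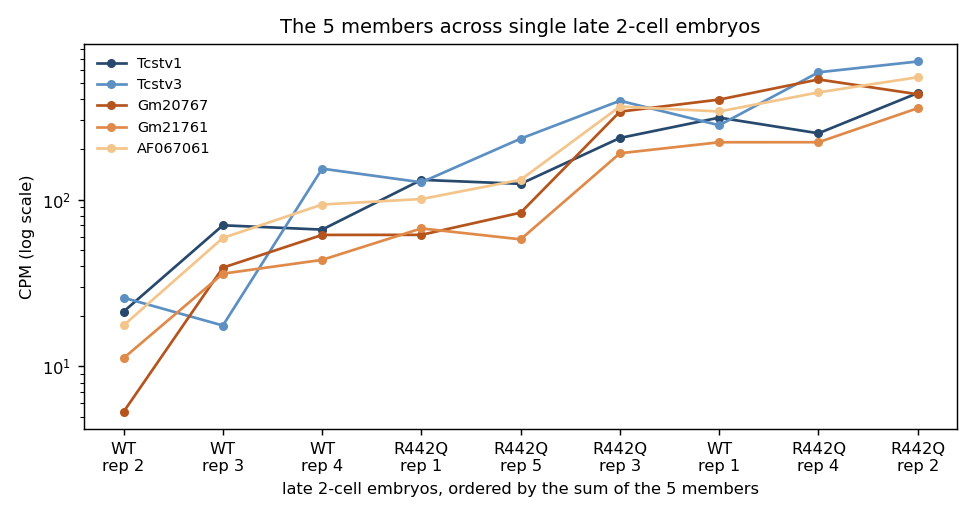
The 9 late 2-cell embryos are ordered on the x axis by the sum of the 5 members, and each line is 1 member in CPM on a log axis. The sum runs from 81.3 CPM in WT replicate 2 to 2433.9 CPM in R442Q replicate 2, and the 5 lines follow it with exceptions such as Tcstv3, lower in WT replicate 3 than in WT replicate 2, with WT replicate 1 in the third highest place.

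The members moved together across late 2-cell embryos. The correlation of log2 CPM with the summed level over the 9 embryos was 0.93 for Tcstv3, 0.97 for Tcstv1 and 0.987 to 0.998 for the other 3. Each member is part of that sum and shares reads and depth with it, so these values describe the profiles only. WT replicate 2 was the lowest embryo for every member except Tcstv3, for which WT replicate 3 was lowest. R442Q replicate 2 was the highest for every member except Gm20767.

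Outside the set, the genes most like the summed level over the 9 late 2-cell embryos, among 8518 genes, were Gm21818 (Pearson r 0.99), B020031M17Rik (0.98), Gm5039 (0.98), BC147527 (0.97) and Gm43678 (0.97). Gm21818, B020031M17Rik and BC147527 lie in the same interval of chromosome 13, and Gm21818 shares 50-base stretches with Tcstv1 and Tcstv3. Over all 20 zygotes and late 2-cell embryos the closest were Gm21818 (0.96), BC147527 (0.96), Bex3 (0.95), Arsk (0.94) and A930014E10Rik (0.94). Arsk encodes a sulfatase of the lysosome. AF067063 followed the sum less closely, with an r of 0.79 over the 9 embryos. These correlations rest on few embryos that fall into 2 injected groups and, in the wider set, 2 stages.

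Between AF067063 and Tcstv3 there are 21 other annotated genes, many of them pseudogenes or small RNAs, of which 10 were tested for a stage change. In WT embryos 7 of these 10 rose, beside 36.2% of all genes, and in R442Q embryos 6 rose, beside 35.3%. Gm21762 went from 1.75 to 354.8 CPM in WT and from 2.00 to 862.3 CPM in R442Q. D13Ertd608e went from 1.20 to 292.0 and from 2.86 to 700.2 CPM. Gm20763, a processed pseudogene in the same interval, fell from 31.3 to 5.50 CPM in WT and from 46.1 to 5.45 CPM in R442Q (edgeR adjusted p 4.91e-05 and 6.44e-07). Gm21762, D13Ertd608e and Gm20763 were named after their values were seen.

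Other transcripts of the 2-cell programme were also examined. Of 37 listed companion genes (Zscan4, Usp17l, Tdpoz, Obox and related genes), 26 were tested in zygotes. In R442Q 15 were higher and 1 was lower, beside 6.3% and 6.92% of all genes tested. The median log2 fold change was 2.28, beside 0.01 for all genes tested. Of these 26, 2 had no WT zygote over the filter's minimum, and 11 had enough WT zygotes on their own to pass it. With no filter 36 were tested and 20 were higher, beside 3% of all genes. The Zscan4, Usp17l and Tdpoz genes have near-identical copies, so their single values carry the same uncertainty as those of Gm20767 and Gm21761. Gm6763 stood at 3.62 CPM in WT and 41.4 CPM in R442Q (log2 3.63 ± 0.41, edgeR adjusted p 0.000131). The deubiquitinase genes Usp17la (1.70 to 10.6 CPM) and Usp17ld (2.84 to 11.1 CPM) were also higher, with edgeR adjusted p of 0.000862 and 0.00115. In the model of both stages the log2 fold change of Usp17ld was 2.12, beside 2.11 in zygotes alone, but its call was lost (edgeR adjusted p 0.118).

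In late 2-cell embryos 1 of 36 companion genes tested was higher in R442Q and none was lower by edgeR, beside 1.22% and 2.95% of all genes. Of the 36, 34 had a positive log2 fold change, and the median was 1.004 beside 0.07 for all genes. DESeq2 called 9 companion genes higher, and called 740 of all 13883 genes higher where edgeR called 170. AF067063 stood at 645.1, 284.4, 292.3 and 608.9 CPM in WT and at 880.1, 948.6, 632.8, 835.1 and 893.4 CPM in R442Q. R442Q replicate 3 lay just below WT replicate 1, and the other R442Q embryos were above every WT embryo. Its log2 fold change was 0.99 ± 0.33 (edgeR adjusted p 0.102), which passed in DESeq2 (adjusted p 0.0225) and without R442Q replicate 3 (edgeR adjusted p 0.0482).

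Between the stages 33 of 37 companion genes rose and 2 fell in WT, with a median log2 change of 6.13, and 32 rose and 1 fell in R442Q, with a median of 4.59. All genes tested had medians of 0.34 and 0.22, with 36.2% of them higher and 25% lower in WT and 35.3% and 29.8% in R442Q. Obox6, an oocyte-type homeobox gene, went from 1.29 to 539.2 CPM in WT and from 3.08 to 684.2 CPM in R442Q. Tdpoz1 went from 0.772 to 316.5 and from 0.687 to 490.9 CPM. AF067063 went from 1.98 to 457.7 CPM in WT and from 3.63 to 838.0 CPM in R442Q. Obox3 went from 3.56 to 227.9 CPM in WT and rose in both groups (log2 5.91 in WT and 6.18 in R442Q, edgeR adjusted p 1.56e-10 and 1.1e-11). Dppa4, a chromatin factor known for activating Dux, went from 7.88 to 480.6 CPM in R442Q and also rose in both (log2 4.81 in WT and 5.75 in R442Q, edgeR adjusted p 1.87e-10 and 3.3e-12). Tcstv1, with a WT log2 change of 0.26, and Tcstv3, with 2.29, lay below the median of that list. The difference of the stage change was called for 5 of the 37 companion genes, beside 10.1% of all genes. Of these 1 was higher in R442Q and 4 were lower (Usp17la, Spz1, Usp17ld and B020004J07Rik, with log2 differences of -2.46, -3.78, -3.17 and -2.84), and the median was -1.21 beside -0.16 for all genes.

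Genes of telomere upkeep did not share a direction. Of 18 listed, 17 were tested in zygotes, and 4 were higher in R442Q and 3 lower, beside 6.3% and 6.92% of all genes, with a median log2 fold change of -0.02 beside 0.01 for all genes. The higher genes were Zscan4f (0.692 to 16.7 CPM, edgeR adjusted p 0.00248), Zscan4d (5.34 to 26.4 CPM, 0.00403), Zscan4c (1.25 to 12.9 CPM, 0.00532) and Tbx3 (9.19 to 21.1 CPM, 0.00409). The Zscan4 genes, known for telomere lengthening in stem cells, also belong to the companion list. The lower genes were Rif1, Atrx and Terf1, with log2 fold changes of -0.62, -0.52 and -0.45 (edgeR adjusted p 0.0222, 0.0296 and 0.045). These lower calls were not stable, since they numbered 0 to 2 when any 1 embryo was left out, 0 without WT replicate 2, and 0 with both stages in 1 model. In late 2-cell embryos edgeR called 1 of 17, beside 4.18% of all genes tested, so this count does not set the list apart. The gene called was Tbx3, a T-box transcription factor, which was lower in R442Q (134.6 to 33.8 CPM, log2 -1.91 ± 0.36, edgeR adjusted p 0.0134).

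Between the stages 7 of the 17 tested telomere genes rose and 3 fell in WT, and 5 rose and 7 fell in R442Q. Of all genes 36.2% rose and 25% fell in WT and 35.3% and 29.8% in R442Q, so these counts do not set the list apart. Acd, which encodes the shelterin protein TPP1, fell from 200.3 to 35.7 CPM in WT and from 146.8 to 41.1 CPM in R442Q. Zscan4f rose from 0.692 to 154.1 CPM in WT and from 16.7 to 627.9 CPM in R442Q. Terf2ip, which encodes the shelterin protein RAP1, rose in both groups (log2 3.65 in WT and 2.64 in R442Q, edgeR adjusted p 2.78e-06 and 3.3e-05). Pot1a, a binder of single-stranded telomere ends, fell in both (log2 -2.96 in WT and -3.12 in R442Q, edgeR adjusted p 4.39e-06 and 3.67e-07). Tbx3 rose from 9.19 to 134.6 CPM in WT and had a log2 change of 0.48 in R442Q (edgeR adjusted p 0.16). Daxx, a histone chaperone, fell from 22.9 to 4.06 CPM in R442Q and had a log2 change of -0.65 in WT (edgeR adjusted p 0.122). The stage change itself differed between the groups for Tbx3 (log2 -3.31, edgeR adjusted p 0.000113) and Daxx (-2.02, 0.0105).

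In blastocysts the family was near 0. The summed FPKM was 1.64, 1.98, 0.62, 0.08, 0, 0 and 0 in WT replicates 1 to 7 and 3.79, 1.82, 0.12, 0.19, 0, 0 and 0.06 in R442Q replicates 1 to 7. Tcstv1 was listed at 0 in 5 of 7 WT and 6 of 7 R442Q embryos, and at 1.27, 0.33 and 1.34 FPKM in the rest. Tcstv3 was listed at 0.43 and 0.56 FPKM in 2 WT embryos and at 0 in all others. Gm20767 was listed at 3.15 FPKM in R442Q replicate 1 and at 0 in the other 13 embryos. Gm21761 reached at most 0.76 FPKM in WT and 0.54 in R442Q, and AF067061 at most 0.46 and 0.10.

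No member passed the blastocyst filter, which required 7 embryos with an FPKM of 1 or more, so none was tested by limma, which called 1 of 11297 genes (0.00885%). AF067063 was listed at 0.74 FPKM in 1 WT embryo and at 0.13, 2.72 and 0.09 in 3 R442Q embryos. The depth behind a value listed at 0 is unknown for these embryos, and no fold change against such a group is given.

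**Figure D5:**
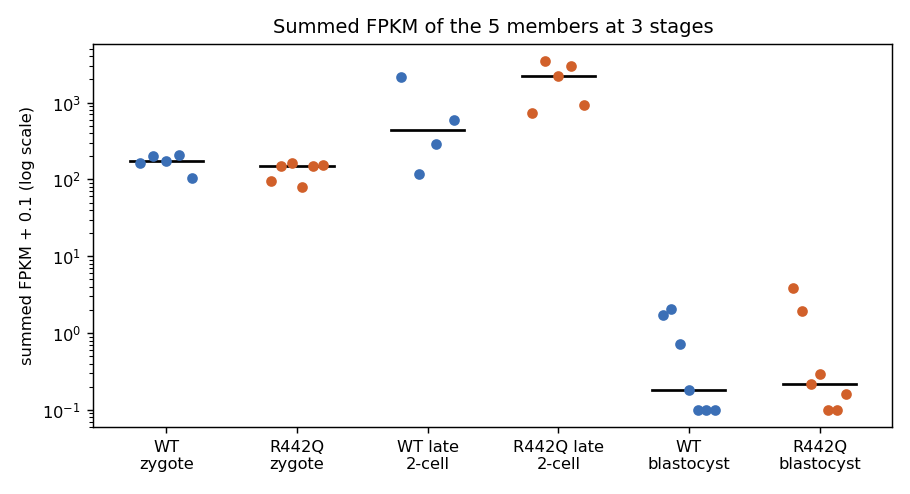
Each point is the summed FPKM + 0.1 of the 5 members in 1 embryo on a log axis (blue WT, orange R442Q), with a line at the median of each group. Sums run from 78.7 to 205.7 FPKM in zygotes and 116.1 to 3432 FPKM in late 2-cell embryos, and do not exceed 3.79 FPKM in blastocysts.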

How the data were processed

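Single mouse embryos were sequenced after SMART-seq2 amplification, Tn5 fragmentation and Nextera library preparation, per the labels. Submitters' processing notes name RSEM and the genome build mm10. Their version and settings, and any use of strand, are not given in the sources used here. The authors deposited estimated counts per gene symbol, not normalised, for zygotes and late 2-cell embryos, and FPKM (normalised by the authors to length and library size) for all stages. Columns were matched to embryos through the description label, whose numbers differ from the title's in zygotes and late 2-cell embryos, with 0 value columns unused. Replicates are named by the title's number. How RSEM divided reads among near-identical members bears directly on their single values.

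Counts were rounded and tested in R 4.3.3 with edgeR 4.0.16 (filterByExpr with a minimum count of 10, trimmed mean of M values scaling, quasi-likelihood test), each stage alone. A model of 4 groups gave the stage changes and their difference. Blastocysts were tested with limma 3.58.1 on log2(FPKM + 1), a scale that compresses changes of low genes, where 7 or more embryos reached an FPKM of 1. All tests were two-sided, adjusted by Benjamini-Hochberg over all genes tested, with a threshold of 0.05. CPM used total estimated counts. Log2 CPM for likeness used a prior count of 2 and genes of at least 10 mean CPM in late 2-cell embryos. No 2 libraries of zygotes or late 2-cell embryos agreed within sampling noise. Blastocysts have FPKM only, so there identical columns alone were looked for, with 0 pairs found. DESeq2 1.42.0, other scaling, no filter, a replicate block, FPKM and leaving out each embryo were alternatives. Identifiers came from GENCODE M21 (GRCm38) and promoters from RefSeq (GRCm38.p6). The tests were tested on simulated data.

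Named were all 5 members, AF067063, the 5 genes most like the summed level over 9 and over 20 embryos, and up to 4 genes per comparison from the companion and telomere lists by smallest p. The lower telomere genes Rif1, Atrx and Terf1 were named beyond the rule because they complete a count. The members and lists were chosen with earlier results of these data known. A companion gene that the rule would have named is not reported here.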

Additional observations from a re-analysis of the deposited data

Results flagged for a closer look

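Single embryos that lay far from the rest of their group were looked for among the members and their sum with Dixon's test, in 34 groups of values that were not all equal. Of these, 12 were found. For normally distributed values chance alone gives about 1 in 20, beside the 7 found in 24 groups of zygotes and late 2-cell embryos. The CPM values were not logged and the groups include the sum of the members, so that rate is a rough guide only. In zygotes these were Tcstv1 in WT replicate 5 (58.6 CPM, the nearest embryo at 91.0), Tcstv3 in R442Q replicate 3 (25.4 CPM, nearest 14.7), Gm20767 in R442Q replicate 2 (24.9 CPM, nearest 10.1) and Gm21761 in the same embryo (5.85 CPM, nearest 1.52).

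In late 2-cell embryos WT replicate 1 lay apart for Tcstv1 (310.4 CPM, nearest 70.2), Gm20767 (398.2 CPM, nearest 61.4) and Gm21761 (220.9 CPM, nearest 43.5). The members share sequence and follow one another across embryos, so these are not independent observations.

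In blastocysts, where most values are listed at 0, the embryos were Tcstv1 in WT replicate 1 (1.27 FPKM) and R442Q replicate 2 (1.34 FPKM), AF067061 in WT replicate 2 (0.46 FPKM) and R442Q replicate 1 (0.1 FPKM), and Gm20767 in R442Q replicate 1 (3.15 FPKM). In 4 of these 5 groups every other embryo was listed at 0, so any value above 0 lies apart and the rate of 1 in 20 does not apply.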

How the results depend on the processing

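Of 527 values of single members under alternatives, 511 kept their direction and side of the threshold, 11 passed it newly, 1 lost it and 4 turned direction. The last were Tcstv1 in the WT stage change (-0.96) and, in the difference of the stage change, Gm20767 (0.024) and Gm21761 (0.89), all without WT late 2-cell replicate 1, and Gm21761 (0.47) without R442Q zygote replicate 2. The 75 alternatives for the summed level moved it by less than the spread between embryos (1 SD), which is wide. Without WT late 2-cell replicate 1 or 2 it moved by over 1.5 times, to 2.59 or 1.17 for R442Q against WT late 2-cell embryos (1.84 with all), 0.83 or 2.24 for the WT stage change (1.57) and 2.90 or 1.48 for the difference of the stage change (2.15). Over all alternatives, the WT stage change of Tcstv1 ran from -0.96 to 0.43. The difference of the stage change ran from -2.14 to 0.024 for Gm20767 and from -0.89 to 0.89 for Gm21761. Causes were not tested.

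In zygotes 783 genes were higher and 860 lower. Library totals alone gave 502 and 1338 (27.3% of calls higher, against 47.7%), limma on FPKM gave 411 higher, and both stages in 1 model gave 197 and 73, with 1 member higher and 0 lower genes of either list. In late 2-cell embryos 170 were higher and 410 lower. DESeq2 gave 740 and 943 (44.0% of calls higher, against 29.3%), 9 companion genes higher and 4 telomere genes lower. No filter gave 641 lower, 1 member and 6 companion genes higher, and 2 telomere genes in each direction. Limma on FPKM gave 264 higher. Both stages in 1 model gave 944 and 1563, 1 member higher and 4 telomere genes lower. For the difference of the stage change, with 497 genes higher, DESeq2 gave 1136, and DESeq2 and no filter each called 1 member. In blastocysts the 1 higher gene became 0 with no filter and 5 with rescaled columns.

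Same-numbered embryos did not deviate together (correlations -0.06 to 0.06 in zygotes, -0.14 to 0.20 in late 2-cell embryos and -0.17 to 0.20 in blastocysts). These numbers are those of the titles. By the differing numbers of the deposited columns the correlations were -0.07 to 0.04 in zygotes and -0.14 to -0.06 in late 2-cell embryos. With a replicate block the late 2-cell counts were 8 higher and 50 lower with 0 companion genes, the difference of the stage change gave 273 higher, and blastocysts gave 0. It changed no call of a member.

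Leaving out each embryo in turn gave 23 to 376 higher and 119 to 515 lower genes in late 2-cell embryos, 0 to 1 member and 1 to 4 companion genes higher, and 1 to 2 telomere genes lower. Telomere genes lower in zygotes numbered 0 to 2 (3 with all embryos). The difference of the stage change ranged from 368 to 1029 higher and 670 to 1282 lower genes and 0 to 2 members, the WT stage change called 0 to 1 member lower, and blastocysts 0 to 30 genes higher.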
